A study of Mus musculus with 19 samples.

Results

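The UDP-glucuronosyltransferases (UGT), glutathione S-transferases (GST) and sulfotransferases (SULT) of mouse liver were followed in 19 livers. Members were the genes whose symbol begins with Ugt1, Ugt2 or Ugt3, with Gst and the letter of a soluble class (a, k, m, o, p, t or z), or with Sult, and that had counts in all libraries. The rule found 47 genes, 18 UGT, 21 GST and 8 SULT genes, among 14319 genes with values in every library (14576 in the whole table). The expression filter left 45 of them among 12493 genes tested. Gsto2 and Ugt1a2 were too low to test, with mean levels of 0.0773 and 0.0993 CPM, counts scaled to a common library size.

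All mice were adult and carried ROSA26 ChR2 fl/wt, a floxed channelrhodopsin-2 allele that makes cells excitable by blue light once Cre has acted. Mice called tg were AgRP-IRES-Cre tg/wt, with Cre expressed from the gene of agouti-related peptide, which marks hunger neurons of the arcuate nucleus. Mice called wt were AgRP-IRES-Cre wt/wt. Both genotypes received 473 nm light through a fibre above the arcuate nucleus in 10 ms pulses at 20 Hz, in cycles of 3 s with pulses and 1 s of pause, and had no food meanwhile. Light ran for 2 h from zeitgeber time 5.5 or for 4 h from zeitgeber time 3.5, and livers were taken at zeitgeber time 7.5. There were 4 tg mice at 2 h (numbered 1, 2, 3 and 5) and 5 mice in each of the other groups, wt 2 h, wt 4 h and tg 4 h. No tg mice went without light, so excitation of the neurons and presence of the Cre driver cannot be told apart. Groups of 2 h and 4 h differed in time without food and in the start of light as well as in its duration.

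UGT enzymes sit in the endoplasmic reticulum and attach glucuronic acid from UDP-glucuronic acid to bilirubin, steroids, bile acids and drugs. Soluble GST enzymes join glutathione to electrophiles such as peroxidation products and activated drugs, and cytosolic SULT enzymes transfer sulfate from the donor PAPS to steroids, catechols, bile acids and phenols. The conjugates are more water-soluble and leave the hepatocyte through transporters to bile or blood. In liver these genes are known as targets of the nuclear receptors PXR and CAR, of the aryl hydrocarbon receptor, of NRF2 and of hepatocyte factors such as HNF1.

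Total counts per library ran from 21474255 to 32721828. Mitochondrial genes held 7.75% of the counts in tg 2 h replicate 1 and 7.83% in wt 4 h replicate 1, and 10.0% to 12.9% in the other libraries. Hepatocyte markers summed to 78308 to 122513 CPM, and lymphocyte and neutrophil markers to at most 14.1 CPM. The labels give no sex, and the Y-linked genes Ddx3y, Eif2s3y, Kdm5d and Uty were counted in all 19 libraries. All p-values measure the spread between these mice only. As whole liver was sampled, fewer cells of a type and less RNA per cell cannot be told apart.

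The 5 members that differed between genotypes were 2 SULT1 genes that lie beside each other on chromosome 5, 2 UGT genes and 1 theta-class GST. Sult1e1, the estrogen sulfotransferase, lies at chr5:87575969-87591594 (- strand) and Sult1d1, a sulfotransferase of catechols, at chr5:87554645-87569027 (- strand). Ugt1a7c, 1 of the alternative first-exon genes of the Ugt1a locus, lies at chr1:88095062-88220002 (+ strand). Ugt2b35, of the UGT2B subfamily that conjugates steroids and bile acids, lies at chr5:87000860-87013275 (+ strand), and Gstt2, a theta-class enzyme, at chr10:75831114-75837424 (- strand). Positions are of build GRCm38, and the identifiers are ENSMUSG00000029272, ENSMUSG00000029273, ENSMUSG00000090124, ENSMUSG00000035811 and ENSMUSG00000033318 in that order.

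The 250 bases before the RefSeq start of 4 of these genes are shown (RefSeq, build GRCm38.p6), since they hold the sites closest to the start of the genes that differed and let the SULT1 neighbours be compared. Capitals mark exact matches to any of 4 motifs searched on both strands, and bases are counted back from the start, with -1 the last base before it. The windows are chr5:87591612-87591861, - strand (Sult1e1), chr5:87569007-87569256, - strand (Sult1d1), chr1:88094751-88095000, + strand (Ugt1a7c) and chr5:87000610-87000859, + strand (Ugt2b35), each printed 5′ to 3′ on the gene's strand.
Sult1e1: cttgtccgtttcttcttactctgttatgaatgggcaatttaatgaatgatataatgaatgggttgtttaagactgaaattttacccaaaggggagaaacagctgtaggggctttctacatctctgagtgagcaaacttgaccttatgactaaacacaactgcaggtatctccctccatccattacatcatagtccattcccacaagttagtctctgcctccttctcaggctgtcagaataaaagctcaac
Sult1d1: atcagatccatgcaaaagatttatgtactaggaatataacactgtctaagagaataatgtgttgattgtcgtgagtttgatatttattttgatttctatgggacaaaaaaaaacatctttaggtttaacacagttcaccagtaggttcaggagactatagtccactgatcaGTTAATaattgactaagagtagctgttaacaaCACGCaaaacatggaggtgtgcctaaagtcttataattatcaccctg
Ugt1a7c: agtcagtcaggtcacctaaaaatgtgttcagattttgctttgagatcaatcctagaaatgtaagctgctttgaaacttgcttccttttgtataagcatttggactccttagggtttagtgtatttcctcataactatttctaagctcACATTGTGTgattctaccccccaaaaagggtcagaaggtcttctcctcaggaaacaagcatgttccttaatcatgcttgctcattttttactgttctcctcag
Ugt2b35: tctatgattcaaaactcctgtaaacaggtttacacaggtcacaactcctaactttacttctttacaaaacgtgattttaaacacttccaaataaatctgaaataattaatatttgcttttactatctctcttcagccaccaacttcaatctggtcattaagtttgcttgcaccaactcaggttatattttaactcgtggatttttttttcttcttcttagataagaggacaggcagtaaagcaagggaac
The motifs were TGACNNNGC, the core of the antioxidant response element bound by NRF2; GCGTG, the core bound by the aryl hydrocarbon receptor; ACANNNTGT, the palindromic core bound by the glucocorticoid receptor; and GTTAAT, found in HNF1 sites. Sult1d1 held GTTAAT at -79 to -74 and GCGTG, read as CACGC on the opposite strand, at -47 to -43. Ugt1a7c held ACANNNTGT at -103 to -95, which reads the same on both strands. The windows of Sult1e1 and Ugt2b35 held no match to these letters. Among 32851 promoter windows of the same length, 10.2% held TGACNNNGC, 28.2% GCGTG, 5.84% ACANNNTGT and 6.43% GTTAAT. Of the 42 members with a window, TGACNNNGC was found in 3 (Gsta3, Gstm5 and Gstm7), GCGTG in 8, ACANNNTGT in 2 (Sult2a8 and Ugt1a7c) and GTTAAT in 9. These matches describe the letters of the windows and are not sites of binding.

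Together the 47 genes held 0.923% to 1.23% of all counts of a library, from 8732 to 12477 CPM, and these sums overlapped between all 4 groups. GST genes summed to 5432 ± 1120.4 CPM (SD, n = 5) in wt 2 h, 5418 ± 955 (SD, n = 4) in tg 2 h, 5556 ± 614 (SD, n = 5) in wt 4 h and 5392 ± 238 (SD, n = 5) in tg 4 h. UGT genes summed to 3836 ± 367, 4028 ± 327, 4266 ± 498 and 4005 ± 494 CPM in the same order. SULT genes summed to 1003 ± 107, 1122.5 ± 202, 1091 ± 108 and 1231 ± 176 CPM. Each gap between the genotypes in these family sums was smaller than the larger of the SDs of the groups compared.

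**Figure D1:**
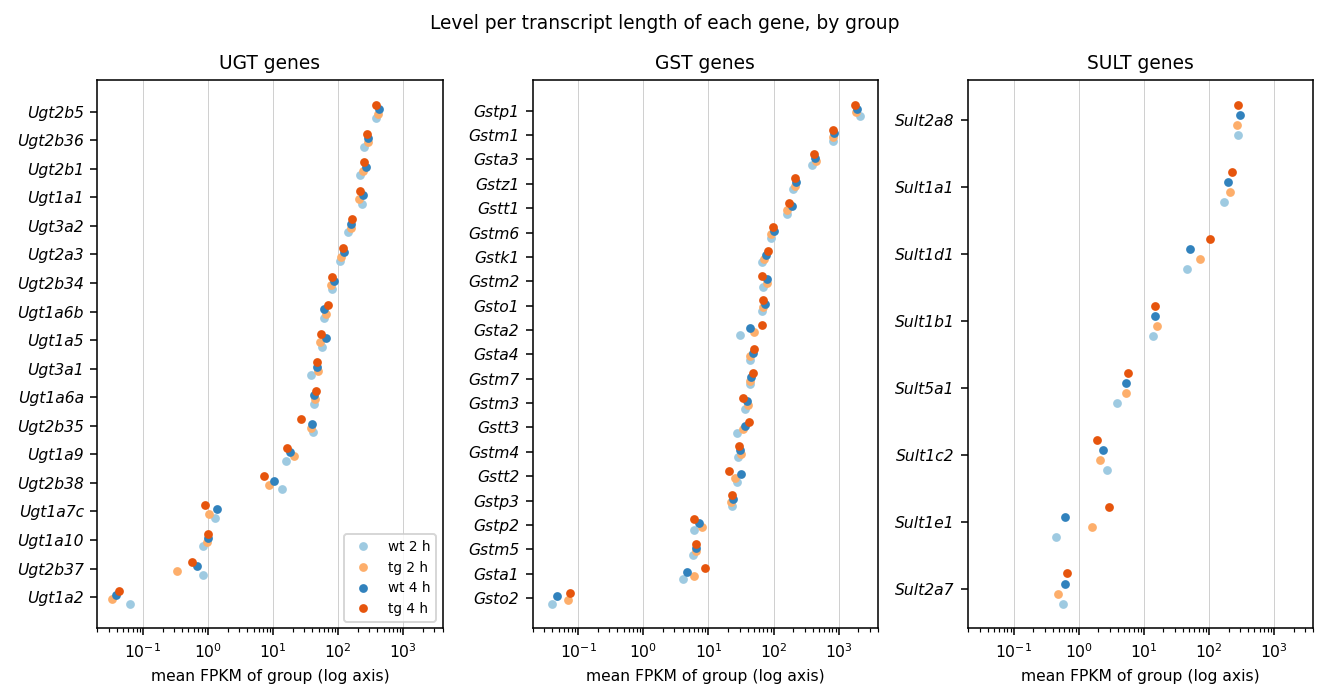
Mean level of each gene in each group, as FPKM on a log axis, for UGT (left), GST (middle) and SULT genes (right), ordered by the mean over all 19 libraries. The tg points of Sult1e1 and Sult1d1 lie to the right of their wt points, and the group means of Ugt2b37 (0.339 to 0.839 FPKM), Gsta1 (4.02 to 8.82) and Gsta2 (30.4 to 65.4) also lie apart.

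Levels between genes were compared per length, as FPKM (CPM divided by the length in kb of the longest annotated transcript, mean of 19 libraries). Gstp1, a pi-class GST, was the highest member with 1934 FPKM and held 46.1% of the summed FPKM of GST genes. Gstm1, a mu-class enzyme, had 829.9 and Gsta3, an alpha-class enzyme that acts on aflatoxin epoxide in mice, 419.9 FPKM. Gstz1, which isomerises maleylacetoacetate in tyrosine breakdown, followed with 211 and Gstt1 with 173 FPKM, and the median over 21 GST genes was 46.4 FPKM. Gsta1 and Gstm5 were the lowest tested GST genes, at 5.86 and 6.31 FPKM.

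Among UGT genes Ugt2b5 led with 395 FPKM, ahead of Ugt2b36 (274), Ugt2b1 (240.2) and Ugt1a1 (225), the enzyme that conjugates bilirubin. The UGT3 genes Ugt3a2 and Ugt3a1, whose enzymes use other UDP-sugars, had 155 and 45.2 FPKM. Ugt1a7c, Ugt1a10 and Ugt2b37 were the lowest tested UGT genes at 1.14, 0.948 and 0.619 FPKM. Sult2a8, a bile acid sulfotransferase, held 48.9% of the summed FPKM of SULT genes with 282 FPKM, followed by the phenol sulfotransferase Sult1a1 (202) and by Sult1d1 (68.7). Sult1e1 averaged 1.39 FPKM and only Sult2a7, at 0.589, was lower among SULT genes. With the length of merged exons in place of the longest transcript, Gstp1 had 1026 and Gstt2 14.3 instead of 26.4 FPKM, and the highest 3 genes of each family kept their order.

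Members differed in how far their transcripts resemble those of other genes, which bears on counts of near-identical copies. More than 50% of the 31-base words of the transcripts recurred in another gene for 10 of 18 UGT, 3 of 21 GST and 0 of 8 SULT genes. The 8 Ugt1a genes, which join separate first exons to shared later exons on chromosome 1, shared 53.0% to 84.2%. Gsta1 shared 92.9%, Gstp2 60.3% and Ugt2b5 56.4%, while Sult1e1, Sult1d1 and Sult1b1 shared 0%, Gstt2 3.66% and Ugt2b35 4.37%. The sources used here do not give how the authors divided such reads, and values of the Ugt1a genes, Gsta1, Gsta2, Gstp2, Ugt2b5 and Ugt2b38 are uncertain in a way that was not measured.

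The comparison at 4 h asked which members differed with genotype after the longer light. Sult1e1 and Sult1d1 were higher in tg, and Ugt1a7c, Gstt2 and Ugt2b35 were lower. Thus 5 of 45 members changed in the quasi-likelihood test of edgeR, adjusted after Benjamini-Hochberg, or 11.1% of members beside 11.4% of all 12493 genes tested. Of these members 2 were higher in tg, beside 5.75% of all genes, and 3 were lower, beside 5.64%. The share of changed members was therefore near that of all genes. The median log2 change was -0.04 over the 45 members and -0.01 over all genes. On the log2 scale 37 members (82.2%) lay within 0.3 of 0, beside 70.2% of all genes.

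**Figure D2:**
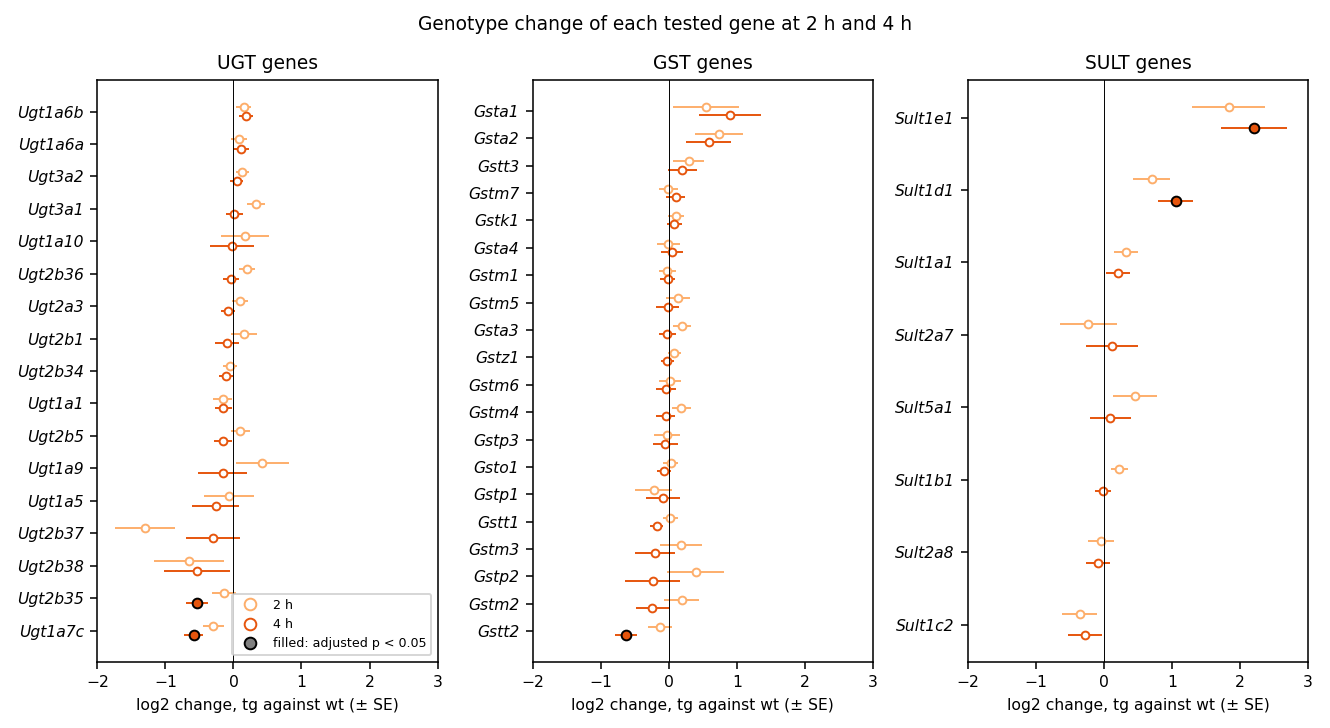
Log2 change of tg against wt with its standard error for each of the 45 tested genes at 2 h (light) and 4 h (dark), by family, ordered by the 4 h value. Filled points have an adjusted p under 0.05: Sult1e1, Sult1d1, Ugt2b35, Ugt1a7c and Gstt2, each at 4 h; most other points lie near 0.

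Sult1e1 had 1.56, 0.454, 0.441, 0.829 and 0.590 CPM in wt 4 h and 5.5, 2.95, 1.51, 3.87 and 4.38 CPM in tg 4 h, in the order of replicate numbers. Every tg library but replicate 3 was above all wt libraries, and replicate 3 lay just under wt replicate 1, so the groups overlapped. The means were 0.776 ± 0.468 and 3.64 ± 1.51 CPM (SD, n = 5 each), a log2 change of 2.21 ± 0.49 (SE) with an adjusted p = 0.00609 in the quasi-likelihood test of edgeR, adjusted after Benjamini-Hochberg. Behind these values stood 11 to 51 counts per library in wt and 40 to 113 in tg. After 2 h, Sult1e1 had 1.02, 0.772, 0.367, 0.345 and 0.264 CPM in wt and 0.904, 3.82, 0.699 and 2.56 CPM in tg. Here tg replicates 2 and 5 were above all wt libraries and tg replicates 1 and 3 were within their range. The log2 change at 2 h was 1.83 ± 0.53, which did not pass (adjusted p = 0.0936 in the quasi-likelihood test of edgeR, adjusted after Benjamini-Hochberg), and without tg 2 h replicate 2 it was 1.301.

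Sult1d1 had 159.9, 112, 88.6, 91.5 and 166 CPM in wt 4 h and 315, 357, 131, 248 and 229 CPM in tg 4 h. Again tg replicate 3 was the lowest of its group and lay within the wt range, while the other tg libraries were above it. The log2 change from 124 ± 37.1 to 256 ± 86.7 CPM was 1.05 ± 0.26, with an adjusted p = 0.0141 in the quasi-likelihood test of edgeR, adjusted after Benjamini-Hochberg. At 2 h the values were 134, 129, 84.8, 114 and 86.1 CPM in wt and 173, 266, 137 and 137 CPM in tg. Each tg library was above each wt library at 2 h, a pattern shown in the same direction by 2.91% of all genes tested, and Sult1d1 was the only member to show it. The log2 change at 2 h was 0.70 ± 0.27 and did not pass (adjusted p = 0.277 in the quasi-likelihood test of edgeR, adjusted after Benjamini-Hochberg).

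**Figure D3:**
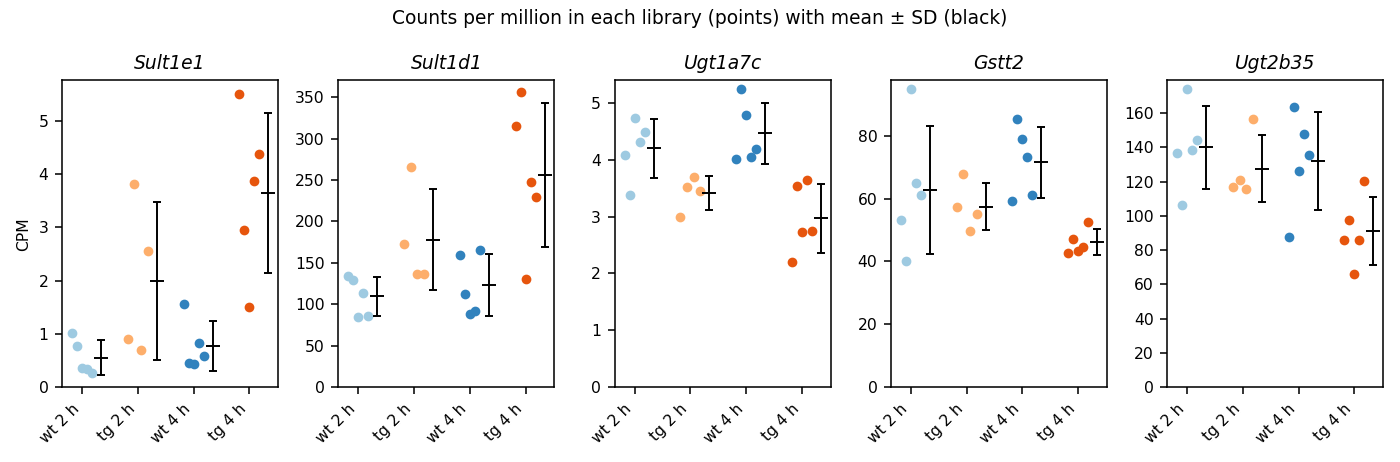
CPM of the 5 changed genes in every library (points) with the group mean and SD (black), by group; each panel has its own axis from 0. At 4 h, tg libraries of Ugt1a7c (2.21 to 3.65) and Gstt2 (42.5 to 52.7) lie below all wt libraries, and 4 of 5 tg libraries of Sult1e1 lie above them.

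The third member of the SULT1 group on chromosome 5, Sult1b1, which acts on thyroid hormones and phenols, lies at chr5:87513339-87538195 (- strand), next to Sult1d1. Sult1b1 had 36.02, 41.8, 33.5, 35.8 and 48.5 CPM in wt 4 h and 37.4, 41.8, 36.3, 38.4 and 39.99 in tg 4 h, with each tg value inside the wt range. Its log2 change was -0.01 ± 0.12 at 4 h and 0.22 ± 0.12 at 2 h, and neither passed. The UGT2 genes that follow at lower coordinates of the same chromosome ranged from -0.53 ± 0.17 (Ugt2b35) to -0.04 ± 0.12 (Ugt2b36) at 4 h. All 8 had an estimate below 0, beside 30 of 45 members and 6475 of 12493 genes tested, and 1 of them passed. At 2 h the estimates of Ugt2a3, Ugt2b1, Ugt2b36 and Ugt2b5 were above 0 and those of Ugt2b34, Ugt2b35, Ugt2b37 and Ugt2b38 below. These estimates come from the same livers and are not independent, so the count is a description only. Under each of the other 3 scalings tried the median over all UGT genes stayed below 0 at 4 h, from -0.20 to -0.10, and that of SULT genes above it, from 0.02 to 0.11.

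**Figure D4:**
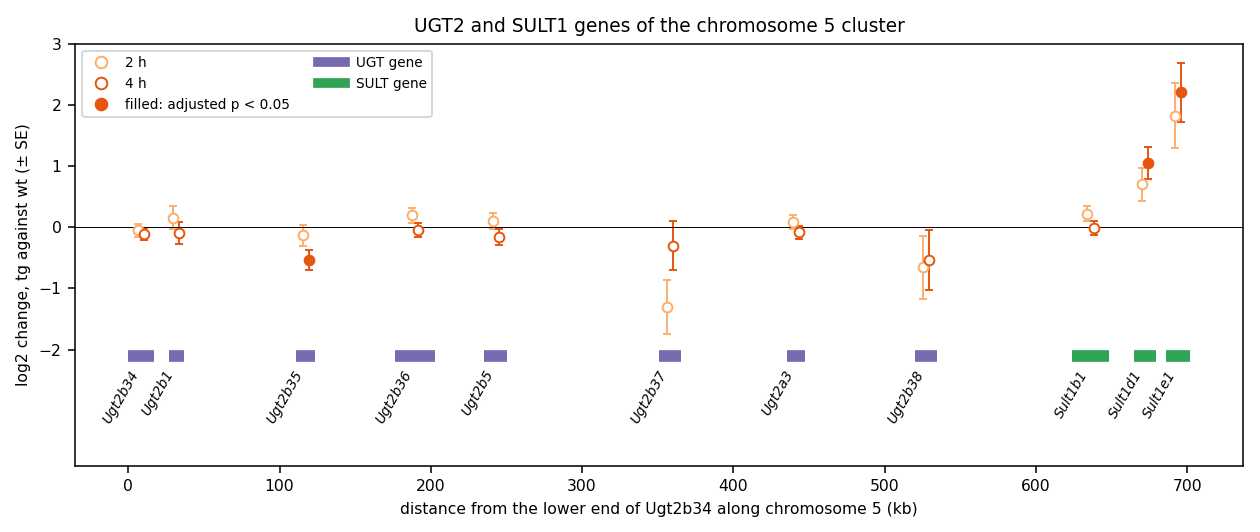
Log2 change of tg against wt (± SE) at 2 h (light) and 4 h (dark) for the UGT2 and SULT1 genes of chromosome 5, placed by distance in kb from the lower end of Ugt2b34; bars show gene extents. Sult1d1 and Sult1e1, at the right end, are above 0 at both durations, and Ugt2b35 is the filled point below 0.

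Ugt1a7c had 4.02, 5.24, 4.79, 4.05 and 4.19 CPM in wt 4 h and 2.21, 3.54, 2.72, 3.65 and 2.75 CPM in tg 4 h. Every tg library was below every wt library. The means were 4.46 ± 0.537 and 2.97 ± 0.606 CPM, a log2 change of -0.58 ± 0.14 with an adjusted p = 0.0111 in the quasi-likelihood test of edgeR, adjusted after Benjamini-Hochberg. At 2 h the values were 4.08, 3.38, 4.74, 4.31 and 4.48 CPM in wt and 3.00, 3.53, 3.70 and 3.45 in tg, with a log2 change of -0.30 ± 0.15 that did not pass. Ugt1a7c held 0.236% to 0.517% of the counts of the Ugt1a locus and shared 55.7% of its sequence words with other genes, whereas Ugt1a1 held 39.1% to 59.1% of those counts. The other 6 tested Ugt1a genes did not pass at 4 h, with log2 changes from -0.26 ± 0.34 (Ugt1a5) to 0.19 ± 0.10 (Ugt1a6b), and the locus as a whole had 1002 ± 91.2 CPM in wt 4 h and 952 ± 167 in tg 4 h.

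Gstt2 had 59.1, 85.2, 79.1, 73.2 and 61.1 CPM in wt 4 h and 42.5, 47.3, 43.4, 44.7 and 52.7 CPM in tg 4 h, and every tg library was below every wt library. The log2 change from 71.5 ± 11.3 to 46.1 ± 4.08 CPM was -0.63 ± 0.16, with an adjusted p = 0.0166 in the quasi-likelihood test of edgeR, adjusted after Benjamini-Hochberg. Without wt 4 h replicate 2 the adjusted p was 0.0526 in the same edgeR test. At 2 h Gstt2 had 53.1, 40.00, 94.8, 64.8 and 61.2 CPM in wt and 57.2, 67.7, 49.8 and 55.00 in tg, and the tg libraries lay inside the wt range. The log2 change at 2 h was -0.13 ± 0.17, and at 4 h the neighbouring theta-class genes Gstt1 and Gstt3 had -0.18 ± 0.10 and 0.20 ± 0.21, none of which passed. Of all 45 members, Gstt2 and Ugt1a7c were those whose groups did not overlap at 4 h, both lower in tg, a pattern shown in that direction by 3.91% of all genes tested.

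Ugt2b35 had 87.5, 163, 126, 148 and 136 CPM in wt 4 h and 86.1, 97.3, 66.2, 86.1 and 120.3 CPM in tg 4 h. Here tg replicate 3 was the lowest library, wt replicate 1 lay among the tg values, and the groups overlapped. The log2 change from 132 ± 28.6 to 91.2 ± 19.8 CPM was -0.53 ± 0.17, with an adjusted p = 0.0409 in the quasi-likelihood test of edgeR, adjusted after Benjamini-Hochberg. This call ended in a fit to the 4 h groups alone and without any 1 of tg 4 h replicates 1, 2, 3 or 4 or wt 4 h replicates 2, 3, 4 or 5, with an adjusted p of up to 0.122 in the same edgeR test. At 2 h Ugt2b35 had 137, 106, 174, 138 and 144 CPM in wt and 117, 121, 116 and 157 in tg, and these overlapped.

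The comparison at 2 h asked the same of the shorter light. None of the 45 members passed the quasi-likelihood test of edgeR, adjusted after Benjamini-Hochberg, at 2 h, beside 2.16% of all genes tested. With limma-voom 0 members were called and with DESeq2 1 (Sult1e1). Of the members 4 had an unadjusted p under 0.05 in the edgeR test, beside 1460 of all 12493 genes tested. The 4 were Sult1e1, Sult1d1, Ugt2b37 with a log2 change of -1.301 ± 0.45 and Ugt3a1 with 0.33 ± 0.13. Ugt2b37 had 1.43, 2.10, 0.947, 2.50 and 0.979 CPM in wt and 0.493, 0.212, 0.534 and 1.33 in tg. Replicate 5 of tg lay within the wt range and the other 3 tg libraries below it. Ugt3a1 had 81.6, 82.2, 84.8, 87.8 and 97.97 CPM in wt and 119.8, 119, 80.1 and 119 in tg. Here 3 tg libraries were above all wt libraries, and tg replicate 3 was just below them. The median log2 change was 0.10 over the 45 members, 0.09 over UGT, 0.09 over GST and 0.27 over SULT genes, beside 0.01 over all genes.

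The difference between the genotype effects at 4 h and 2 h was tested for every member. None of the 45 passed the quasi-likelihood test of edgeR, adjusted after Benjamini-Hochberg, as was the case for all 12493 genes (0.0%). Gstt2 was the only member with an unadjusted p under 0.05, beside 723 of all genes tested, and had a difference of -0.50 ± 0.24. DESeq2 and limma-voom also called 0 members. The effects on Sult1e1 and Sult1d1 differed between durations by 0.38 ± 0.73 and 0.35 ± 0.38 (SE). A call at 4 h without one at 2 h is therefore not shown to be a difference between the durations.

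On average over both durations 4 of 45 members changed (8.89%, beside 14.2% of all genes tested) in the quasi-likelihood test of edgeR, adjusted after Benjamini-Hochberg. Of these 2 were higher, beside 6.98% of all genes, and 2 lower, beside 7.22%. Sult1e1 was higher by 2.02 ± 0.36 and Sult1d1 by 0.88 ± 0.19 on the log2 scale, and Ugt1a7c was at -0.44 ± 0.10 and Gstt2 at -0.38 ± 0.12. The call of Gstt2 ended in 13 of 19 fits, each without 1 library, with an adjusted p of up to 0.0804 in the same edgeR test. It ended also with the replicate block and with limma-voom, 15 of 28 alternatives in all. Of the fits without 1 library it held without replicate 2 of tg 2 h, replicate 1 or 2 of wt 2 h, replicate 5 of tg 4 h, and replicate 1 or 5 of wt 4 h, and the other 3 calls held in all 19. Gsta1 and Gsta2, alpha-class enzymes for peroxidation products, had 0.72 ± 0.33 and 0.66 ± 0.24 and did not pass.

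In the authors' deposited table for 4 h, the members with an adjusted p under 0.05 were also Gstt2, Sult1d1, Sult1e1, Ugt1a7c and Ugt2b35, beside 12.2% of all genes with an adjusted p. The authors' deposited table gave log2 changes of 2.23, 1.06, -0.58, -0.62 and -0.53 for Sult1e1, Sult1d1, Ugt1a7c, Gstt2 and Ugt2b35. For 2 h, the authors' deposited table called 2 members, Sult1e1 with 1.84 (adjusted p = 0.0197) and Sult1d1 with 0.70 (adjusted p = 0.0373), beside 3.98% of all genes.

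The 3 highest uncalled members of each family by FPKM are given next. Gstp1 had 909.8, 1354, 2796, 2233 and 1574 CPM in wt 2 h, 1674, 1653, 1137 and 1620.5 in tg 2 h, 1018, 1846, 1974, 969 and 2019.6 in wt 4 h and 1388, 1383, 1728, 1374 and 1511 in tg 4 h. Its wt libraries spread from 909.8 to 2796 CPM, with tg libraries inside this range, and the log2 changes were -0.22 ± 0.27 at 2 h and -0.08 ± 0.25 at 4 h. Gstm1 had 967, 911, 1273, 1121 and 1082 CPM in wt 2 h, 908, 1364, 878 and 1074 in tg 2 h, 1039, 1069.8, 1122, 1055 and 1121 in wt 4 h and 1099.7, 917, 1084, 1119 and 1121 in tg 4 h. The groups overlapped, and the log2 changes of Gstm1 were -0.02 ± 0.12 and -0.02 ± 0.12. Gsta3 had 1066, 1026, 1262, 1000.5 and 1047 CPM in wt 2 h, 1053, 1722, 1084 and 1087 in tg 2 h, 1323, 1281, 1011, 1092 and 1299.5 in wt 4 h and 1140.0, 1263, 1024, 1179 and 1318 in tg 4 h. Apart from tg 2 h replicate 2, which was the highest library, its tg and wt values overlapped, with log2 changes of 0.20 ± 0.14 and -0.02 ± 0.13.

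Ugt2b5 had 645, 499.5, 846, 736 and 784 CPM in wt 2 h, 774, 793, 675 and 772 in tg 2 h, 710.1, 923, 650.1, 765 and 867 in wt 4 h and 697, 704, 630.2, 647 and 836 in tg 4 h. The lowest value was that of wt 2 h replicate 2 and the groups overlapped, with log2 changes of 0.10 ± 0.14 at 2 h and -0.16 ± 0.13 at 4 h. Ugt2b36 had 453, 373, 514, 493 and 528 CPM in wt 2 h, 550.1, 591, 469 and 555 in tg 2 h, 503, 595, 464, 510.2 and 621 in wt 4 h and 501, 578, 436, 491 and 613 in tg 4 h. At 2 h, 3 of 4 tg libraries of Ugt2b36 were above all wt libraries, and at 4 h the groups overlapped throughout, with log2 changes of 0.20 ± 0.12 and -0.04 ± 0.12. Ugt2b1 had 472, 444, 591, 689 and 541 CPM in wt 2 h, 528, 721, 465 and 725 in tg 2 h, 614, 813, 524, 509 and 927 in wt 4 h and 691, 543, 603, 569.5 and 774 in tg 4 h. Its highest and lowest values were both in wt libraries, and the log2 changes were 0.16 ± 0.19 and -0.09 ± 0.18.

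Sult2a8 had 583, 399, 716, 669.9 and 641 CPM in wt 2 h, 485, 577, 563 and 703 in tg 2 h, 462, 743, 647, 600.5 and 711 in wt 4 h and 552, 664, 389.9, 569 and 806 in tg 4 h. Replicate 3 of tg 4 h and replicate 2 of wt 2 h had the lowest values, the groups overlapped, and the log2 changes were -0.05 ± 0.19 and -0.09 ± 0.18. Sult1a1 had 246, 248, 247, 225 and 207 CPM in wt 2 h, 228, 463, 253 and 228 in tg 2 h, 325, 300.2, 232, 252 and 240.0 in wt 4 h and 348, 315, 373, 292 and 226 in tg 4 h. Replicate 2 of tg 2 h was far above the others, and the log2 changes were 0.32 ± 0.18 and 0.20 ± 0.17. Sult1b1, the third of the uncalled SULT genes by FPKM, had 32.1, 36.1, 34.9, 38.2 and 38.6 CPM in wt 2 h and 35.3, 55.8, 34.8 and 42.3 in tg 2 h. In tg 2 h its highest value was again in replicate 2.

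The other 31 tested members include the alpha-class Gsta1 and Gsta2, with the largest uncalled estimates above 0 among GST genes at 4 h, 0.90 ± 0.46 and 0.59 ± 0.33. Gsta1 had 3.28, 3.43, 3.44, 2.63 and 7.90 CPM in wt 4 h and 4.86, 2.75, 20.1, 6.29 and 4.61 in tg 4 h, and tg replicate 3 alone was far above the rest. The largest uncalled estimate below 0 at 4 h was that of Ugt2b38, -0.53 ± 0.48, with 9.42, 30.1, 29.7, 16.9 and 12.8 CPM in wt 4 h and 13.5, 23.7, 6.62, 10.1 and 14.6 in tg 4 h. By family, 14 of 17 UGT, 17 of 20 GST and 6 of 8 SULT genes lay within 0.3 of 0 on the log2 scale at 4 h, and 13, 17 and 3 did so at 2 h. Of all genes tested 70.2% did so at 4 h and 80.0% at 2 h. A p that misses the threshold does not show that the groups were alike.

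**Figure D5:**
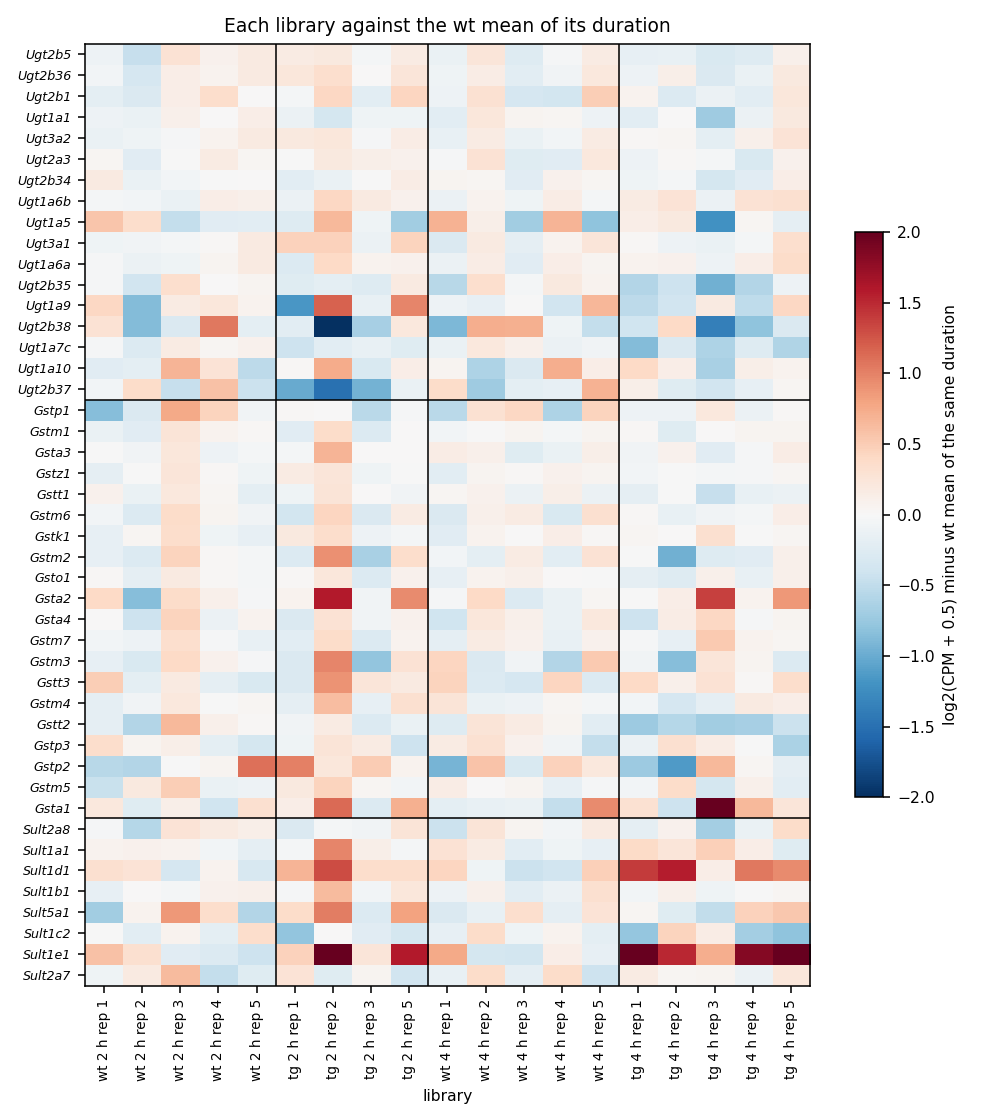
Log2(CPM + 0.5) of each tested gene in each library minus the wt mean of the same duration; rows are grouped as UGT, GST and SULT genes and ordered by FPKM, columns by group. The tg libraries of Sult1d1 and Sult1e1 are red, some only faintly. Some wt libraries are red there too, such as wt 4 h replicate 1 in Sult1e1 (0.76) and wt 4 h replicate 5 in Sult1d1 (0.47). The column of tg 2 h replicate 2 is red over most GST and SULT genes.

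The members' spread between mice of a group ran over a wide range. The median within-group SD of log2(CPM + 0.5) was 0.28 over 45 members, beside 0.21 over all genes tested. The widest spreads were those of Ugt2b38 (0.81), Gsta1 (0.67), Ugt1a9 (0.63), Gstp2 (0.62) and Sult1e1 (0.60), and the narrowest were those of Gstz1 (0.12), Ugt3a2 (0.14) and Ugt2b34 (0.15). Replicate 2 of tg 2 h lay above its group mean by a median of 0.28 on the log2 scale over all members, by 0.33 over GST and 0.48 over SULT genes, and had the highest mitochondrial share (12.9%). Replicate 3 of tg 4 h deviated from its group mean by a median of -0.24 over UGT and -0.32 over SULT genes, while its Gsta1 was 1.64 above. The part of these libraries in the results was not tested beyond the fits that left each out.

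Within wt mice, the comparison of 4 h with 2 h gave estimates above 0 for 40 of 45 members, beside 6261 of 12493 genes tested. None passed the quasi-likelihood test of edgeR, adjusted after Benjamini-Hochberg (background 0.0%), and DESeq2 and limma-voom called 0. An unadjusted p under 0.05 was found for 3 members, beside 747 of all 12493 genes tested. These were Gstt1 with a log2 change of 0.29 ± 0.10, Ugt3a1 with 0.28 ± 0.12 and Ugt2a3 with 0.25 ± 0.11. The median over members was 0.15, and that over all genes 0.00. The number above 0 was 35 with no scaling factors, 40 with either of the other 2 scalings, and 36 to 42 in the 10 fits that left out 1 wt library. These estimates come from the same livers and are not independent, so the count above 0 is a description only. Single libraries moved many members together, with a median deviation over members of -0.17 in wt 2 h replicate 2 and 0.17 in wt 2 h replicate 3. In tg mice 28 of 45 members were above 0, with a median of 0.03. None passed there in the quasi-likelihood test of edgeR, adjusted after Benjamini-Hochberg, beside 0.913% of all genes, and DESeq2 and limma-voom called 0. Ugt2b35 (-0.48 ± 0.17) was the only member with an unadjusted p under 0.05, beside 1513 of all genes tested. Whether the 2 genotypes differ in this was tested gene by gene only, by the difference between effects above.

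The genes that supply the co-substrates were counted from lists. Each count of changed list genes stands beside 2.16% of all genes tested at 2 h and, at 4 h, 11.4% in all, 5.75% higher and 5.64% lower. Of 9 genes listed under UDP-glucuronic acid supply 1 changed at each duration, Slc35d2, a nucleotide-sugar transporter, which fell in tg. No other gene of this list was called, Ugdh, Ugp2 and Slc35d1 among them, and which sugars Slc35d2 carries was not tested. Slc35d2 had 28.96, 35.2, 33.7, 37.5 and 25.7 CPM in wt 4 h and 15.1, 15.9, 18.1, 18.3 and 19.3 in tg 4 h. Its groups did not overlap at 4 h, a pattern shown in that direction by 3.91% of all genes tested. The log2 changes were -0.54 ± 0.11 at 2 h and -0.89 ± 0.10 at 4 h (adjusted p = 0.00940 at 2 h in the quasi-likelihood test of edgeR, adjusted after Benjamini-Hochberg). Of 18 tested genes of glutathione synthesis and recycling 0 changed at either duration, and Cbs, with the smallest p, had 0.47 ± 0.19 at 4 h. Of 13 genes of PAPS supply, 0 changed at 2 h and 1 at 4 h, Impad1, a phosphatase of the sulfation by-product, with 0.37 ± 0.10. That call ended without tg 4 h replicate 2 or without wt 4 h replicate 2, 3 or 4, and with no scaling factors (adjusted p = 0.146 in the same edgeR test). Medians over these lists at 4 h were 0.03, -0.08 and -0.02 on the log2 scale.

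The list of microsomal and other glutathione transferases also held proteins that only share the GST fold, such as Clic1. Of its 9 tested genes 1 fell at 4 h, Clic1 (-0.41 ± 0.13), and 0 changed at 2 h. Of 18 other conjugating enzymes 0 changed at 2 h, and at 4 h 1 rose and 2 fell, so that 3 of 18 stood beside 11.4% of all genes. Nnmt, which methylates nicotinamide, rose by 1.08 ± 0.32, Glyat, which conjugates acyl-CoA with glycine, was at -0.54 ± 0.11 and Nat2, an arylamine acetyltransferase, at -0.47 ± 0.11. The calls of Clic1 and Nnmt each ended in 6 of 10 fits, each without 1 library of 4 h. For both these were the fits without replicate 1, 3 or 5 of tg 4 h and without replicate 2 or 3 of wt 4 h, and also without tg 4 h replicate 2 for Clic1 and without wt 4 h replicate 4 for Nnmt. Both calls ended as well without tg 4 h replicate 3 and wt 4 h replicate 1 together, that of Clic1 in a fit to the 4 h groups alone and that of Nnmt with the replicate block. Nat2 was called at 2 h with DESeq2 and with no scaling factors. Of 5 deconjugating enzymes and 14 conjugate transporters 0 changed at either duration, and the smallest p at 4 h were those of Naaa (-0.47 ± 0.19) and Abcc4 (0.44 ± 0.18). Without tg 4 h replicate 3, alone or together with wt 4 h replicate 1, Naaa was called.

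Regulators of phase II genes changed in both directions. Of 22 tested, 4 were higher and 2 lower at 2 h, beside 2.16% of all genes called at 2 h, and 5 were higher and 2 lower at 4 h, beside 5.75% and 5.64% of all genes. The medians were -0.04 and -0.06. Nr1i2, which encodes PXR, had 77.6, 51.1, 50.4, 57.8 and 63.99 CPM in wt 4 h and 93.3, 101, 109, 97.03 and 125 in tg 4 h. Its log2 changes were 0.60 ± 0.12 at 2 h and 0.80 ± 0.12 at 4 h. Ahr, the aryl hydrocarbon receptor, had 43.2, 26.7, 21.5, 22.3 and 31.98 CPM in wt 4 h and 64.4, 72.5, 31.8, 79.9 and 76.6 in tg 4 h, where tg replicate 3 alone fell within the wt range, and log2 changes of 1.12 ± 0.23 and 1.16 ± 0.22. Ppargc1a, a coactivator of fasting metabolism, rose by 1.69 ± 0.23 and 1.63 ± 0.22, and the hepatocyte factor Cebpa was at -0.59 ± 0.11 and -0.52 ± 0.10. These 4 genes passed the quasi-likelihood test of edgeR, adjusted after Benjamini-Hochberg, at both durations and in every alternative fit run.

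Nr1i3 (CAR) and Nfe2l2 (NRF2) were singled out after their values were seen, as known regulators of these enzymes. Nr1i3 had 111 ± 32.5 in wt and 72.5 ± 18.4 in tg CPM at 4 h, a log2 change of -0.61 ± 0.18 (adjusted p = 0.0364 in the quasi-likelihood test of edgeR, adjusted after Benjamini-Hochberg), and -0.34 ± 0.19 at 2 h, which did not pass. The 4 h call ended in a fit to the 4 h groups alone, without tg 4 h replicate 2 or 3, and without wt 4 h replicate 3, 4 or 5. Nfe2l2 had 54.7 ± 5.36 in wt and 36.4 ± 7.60 in tg CPM at 2 h, a log2 change of -0.59 ± 0.13 that was lost without tg 2 h replicate 1 or 5, and -0.26 ± 0.12 at 4 h, which did not pass. Of 22 tested genes of NRF2 and its targets, 2 fell at 2 h, and 1 rose and 1 fell at 4 h, beside the shares of all genes just given. Osgin1, an oxidative stress-induced growth inhibitor, was at -1.59 ± 0.35 and -1.72 ± 0.33, and its 2 h call ended without any 1 tg 2 h library or without wt 2 h replicate 3 or 5. Hmox1, heme oxygenase, was at 0.60 ± 0.19 at 4 h, a call that ended in 14 of 20 alternative fits, those without replicate 3, 4 or 5 of tg 4 h and without replicate 2, 3, 4 or 5 of wt 4 h among them.

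Markers of the cells and zones of liver were counted in the same way, and their counts stand beside the same shares of all genes, 2.16% at 2 h and 5.75% higher and 5.64% lower at 4 h. Of 13 periportal markers 2 were higher at 2 h and 5 at 4 h, of 13 pericentral markers 2 were lower at 2 h and 2 higher and 2 lower at 4 h, and of 10 hepatocyte markers 0 changed at 2 h and 2 were higher at 4 h. The summed periportal markers had 56271 to 74187.5 CPM in wt 4 h and 79813 to 91804 CPM in tg 4 h. At 2 h these sums overlapped, with 56878.6 to 78591 CPM in wt and 50193.5 to 85686.5 CPM in tg. Alb, Ass1 and Cps1 are in both the periportal and the hepatocyte list, so these lists are not independent. A sum of CPM is weighted to the most abundant genes, and the share of each gene in it was not worked out. Of 10 sinusoidal endothelial markers 0 changed at 2 h and 2 were higher at 4 h, and of 7 cholangiocyte markers 2 were lower at 2 h and 1 at 4 h. Kupffer cell and macrophage markers (10), stellate cell markers (10) and lymphocyte and neutrophil markers (8) had 0 changes at either duration, and no marker list had a member at 0 throughout a group. Of 10 male-biased liver genes 0 changed at 2 h and 1 was lower at 4 h, and 0 of 4 tested female-biased and 0 of 4 tested sex-chromosome genes changed. The median log2 change of the female-biased genes was nevertheless 1.15 at 2 h and 0.44 at 4 h, beside -0.03 and -0.12 for the male-biased genes. The 6 female-biased genes counted summed to 9.14 to 35.1 CPM (median 24.97) in wt 4 h and 16.3 to 164 CPM (median 30.95) in tg 4 h. The part of zonal and cell type markers in the changes of the 5 members was not tested.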

How the data were processed

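RNA of 19 livers was measured by stranded poly-A sequencing, per the labels' protocols. The table the authors deposited holds counts as whole numbers for each gene. Build GRCm38.p6, Salmon 1.4.0, STAR and DESeq2 1.30.0 are named, without roles, in the submitters' processing notes. The tables the authors deposited for each duration also hold, per the file headers, mean normalised counts (a signal), log2 fold changes with errors, a test statistic (a score) and p-values; their calls are cited only where named, and their symbols were used for all genes.

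Counts were fitted in R 4.3.3 with edgeR 4.0.16: expression filter (minimum count 10, minimum total 15; 12493 of 14319 complete genes kept), TMM scaling, 1 mean per group over all 19 libraries, robust quasi-likelihood tests and Benjamini-Hochberg adjustment at 0.05 over all genes. The fit had 15 residual degrees of freedom and a biological coefficient of variation of 0.183. CPM (counts scaled to a common library size) used TMM-scaled totals, and lengths and positions came from GENCODE M21 (GRCm38). A protein comparison was not run; shared 31-base words of transcripts were used in its place. The 257 genes without 4 h values were left out. The test was also run on counts simulated with the spread estimated in this fit. That run is not used for any result here. No 2 libraries of a group agreed within sampling noise (chi-square per degree of freedom of at least 20.1 over 36 pairs).

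Members and lists were chosen with earlier results of these data known. Values per library are given for called members and for the 3 highest uncalled members of each family by FPKM, 14 in all, and from a list at most 4 called genes with the smallest p at 4 h, or 1 if none was called. Alternatives were DESeq2 1.42.0, limma-voom (limma 3.58.1), 3 further scalings, 2 further filters, a replicate block, fits to 2 groups, fits without each library and without 2 libraries together. Python 3.11.15, pandas 2.3.3 and matplotlib 3.10.9 made the tables and plots.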

Additional observations from a re-analysis of the deposited data

Results flagged for a closer look

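Of 68 groups of libraries checked (the 14 members given per library and 3 family sums in 4 groups each), 6 held a library whose gap to its nearest neighbour, divided by the group's range, was above Dixon's 95% critical value for that number of libraries, where chance gives about 1 in 20. The ratio was 0.751 to 0.949 in these 6. In tg 2 h, replicate 2 was far above the others in Gsta3 (1722 CPM) and Sult1a1 (463 CPM), replicate 5 in Ugt2b35 (156.7 CPM), and replicate 3 was far below in Gstp1 (1137 CPM). In wt 2 h, replicate 3 was far above the others in Gsta3 (1262 CPM). In tg 4 h, replicate 2 was far below the others in Gstm1 (917 CPM). None of these genes had a call at the duration concerned.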

How the results depend on the processing

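At 2 h the count of called members was 0 in the fit reported and 1 with DESeq2 and 1 without both tg 4 h replicate 3 and wt 4 h replicate 1 (Sult1e1 in each), and it was 0 to 1 over fits without 1 library (Sult1e1 without tg 2 h replicate 3, Ugt2b37 without replicate 5). At 4 h it was 5, and 3 to 5 without 1 library, with 3 (Sult1d1, Sult1e1 and Ugt1a7c) without wt 4 h replicate 2. On average it was 4, and 3 to 5 without 1 library. The counts for the difference and for 4 h against 2 h in each genotype were 0 in every alternative run. The 4 h calls of Sult1e1, Sult1d1 and Ugt1a7c held in all 20 alternatives, with log2 changes of 2.01 to 2.66, 0.90 to 1.22 and -0.67 to -0.50 over fits without 1 library. Ugt2b35 gained a call on average in 7 of 28 alternatives. No call changed sign, and an uncalled estimate did in 46 cases. Members' medians and the list genes under each alternative were added after seeing the data.

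With the replicate block the counts were 0 at 2 h, 5 at 4 h and 3 on average (without Gstt2, as with limma-voom), and 0 for the other contrasts. Same-numbered tg and wt libraries correlated at -0.33 to 0.19, and 8 of 19 libraries correlated best with a library of their own number in another group. The count expected by chance was not worked out, so this check does not settle whether the numbers pair the mice. Depth limits Sult1e1, Ugt1a7c and Ugt2b37, which rest on few counts: the lowest library of Sult1e1 held 7. A small change in these could not be seen with 4 or 5 mice a group.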

Other observations

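Some uncalled UGT and GST genes varied widely between mice of the same group. Ugt1a5 had 211, 142, 80.6, 209 and 74.96 CPM in wt 4 h and 144, 150.0, 56.2, 134 and 115 in tg 4 h, and Ugt1a9 had 44.2, 18.05, 37.1, 39.1 and 34.8 CPM in wt 2 h and 14.5, 75.8, 30.04 and 65.9 in tg 2 h. Both belong to the Ugt1a locus, whose genes share most of their sequence. Gsta2 had 33.5, 13.7, 32.8, 27.2 and 24.96 CPM in wt 2 h, 26.7, 76.5, 23.96 and 48.9 in tg 2 h, 36.8, 49.3, 31.02, 33.95 and 38.6 in wt 4 h and 37.4, 41.2, 97.6, 39.4 and 68.9 in tg 4 h, so that the highest values of Gsta2, like those of Gsta1, were in tg 2 h replicate 2 and tg 4 h replicate 3. Gsta1 had 4.04, 2.83, 3.79, 2.50 and 4.41 CPM in wt 2 h and 3.82, 8.11, 2.75 and 5.92 in tg 2 h. Sult5a1, the only SULT5 member, had 8.22, 14.3, 25.2, 17.5 and 8.96 CPM in wt 2 h and 17.8, 28.2, 11.2 and 24.3 in tg 2 h, and Sult1c2 had 3.77, 5.70, 4.00, 4.56 and 3.70 CPM in wt 4 h and 2.31, 6.04, 4.80, 2.51 and 2.25 in tg 4 h.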
